A study of Mus musculus with 6 samples.

Results

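The genes described here are 10 immediate early genes, chosen by symbol from the 23537 gene symbols of the expression table: Fos, Fosb and Fosl2 of the Fos family, Jun, Junb and Jund of the Jun family, Egr1, Egr2 and Egr3 of the early growth response (EGR) family, and Atf3. All 10 were found. Hearts were taken from male mice of a mixed C57BL/6-FVB background, aged 6 to 8 weeks, that carried both a transactivator (tTA) driven by the αMHC promoter and a transgene for a HIF1α that is stable in normal oxygen because its hydroxylated prolines and asparagine are alanine (HIF-PPN). Control mice (n = 3) stayed on doxycycline, which keeps the transgene off. HIF-PPN mice (n = 3) were studied 3 days after doxycycline was removed. Every mouse carried both transgenes and had received doxycycline, so removal of the drug and expression of HIF-PPN cannot be told apart. The transgene is driven in cardiomyocytes while the RNA came from all cells of the ventricles, and in such bulk tissue fewer cells of a type and less RNA per cell cannot be told apart.

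Immediate early genes are switched on within minutes of a stimulus, without new protein synthesis, and most of their transcripts are short-lived. In the heart they are known to respond to stretch, adrenergic stimulation, calcium and ischemia. Fos and Jun proteins pair through leucine zippers to form the transcription factor AP-1. Fos proteins need a Jun partner to bind DNA, whereas Jun proteins can also pair with each other. EGR proteins bind GC-rich DNA through zinc fingers, and Atf3 is a stress-induced factor of the same zipper class as Fos and Jun.

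Expression was given as FPKM (fragments counted per kilobase of exon and scaled to library size), a level that accounts for gene length, with 1 value for each group in which the 3 mice had been merged. A log2 fold change is the log2 of the HIF-PPN FPKM divided by the control FPKM, so −1 is a level 2-fold lower in HIF-PPN hearts. With no value per mouse there is no SD and no p-value for any difference below, and the spread between mice is unknown. Read counts were not used here, the depth behind each value is unknown, and no interval can be given. Genes were compared across the table where the mean of both FPKM values was at least 1 and both were above 0 (11849 genes, called compared genes here). Their median log2 fold change was 0.01, and 5% of them lay at or below −0.50.

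Promoters of immediate early genes are known for short sites that bind signal-responsive factors. Of the 10 genes, 8 (all but Egr1 and Egr3) have a promoter in the RefSeq set used here (GRCm38.p6). The 250 bases before the start site nearest to the position in the expression table were searched on both strands. The TGACG core of the cAMP response element (CRE), chosen for display after the sequences had been read, occurred before Fos, Fosb, Junb, Egr2 and Atf3, which is 5 of 8 promoters against 17.8% of all 32851 in the set, which holds more than 1 promoter for some genes. The last 120 bases before the start are shown for these genes and for Jun, since they set the members with the lowest log2 fold changes (Fos, Egr2 and Fosb) beside members with values nearer to 0. Capitals mark TGACG, which reads CGTCA where it lies on the other strand, the TGACATCA of Jun and the CArG box of Egr2, the site of serum response factor (SRF).
Fos (chr12:85473770-85473889, plus strand): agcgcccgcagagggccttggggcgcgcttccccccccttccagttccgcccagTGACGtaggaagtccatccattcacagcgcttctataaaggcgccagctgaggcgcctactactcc
Fosb (chr7:19310046-19310165, minus strand): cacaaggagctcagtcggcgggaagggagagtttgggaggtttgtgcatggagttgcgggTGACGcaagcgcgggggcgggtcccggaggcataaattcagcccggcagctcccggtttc
Egr2 (chr10:67537749-67537868, plus strand): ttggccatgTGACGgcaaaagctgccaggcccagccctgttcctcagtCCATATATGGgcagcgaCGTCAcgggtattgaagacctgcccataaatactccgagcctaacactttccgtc
Jun (chr4:95052223-95052342, minus strand): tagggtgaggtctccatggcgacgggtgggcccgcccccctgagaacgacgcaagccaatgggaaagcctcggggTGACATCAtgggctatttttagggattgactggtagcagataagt
Junb (chr8:84978749-84978868, minus strand): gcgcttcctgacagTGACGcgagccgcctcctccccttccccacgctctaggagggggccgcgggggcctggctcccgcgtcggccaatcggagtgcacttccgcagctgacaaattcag
Atf3 (chr1:191183334-191183453, minus strand): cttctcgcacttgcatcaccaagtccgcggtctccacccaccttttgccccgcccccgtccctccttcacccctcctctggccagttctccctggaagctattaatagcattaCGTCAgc

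In Fos the capitals lie 66 to 62 bases before the start, and a second TGACG lies at 129 to 125 bases, outside the printed stretch. The TGACG of Fosb lies at 60 to 56 bases. Egr2 holds the core at 111 to 107 and at 55 to 51 bases, with its CArG box (CCATATATGG) at 72 to 63 bases. The CArG box was found in 1.47% of all promoters and, within these 250 bases, before no other member searched. Bases further upstream and the promoters of Egr1 and Egr3 were not searched, so the site may lie there. Jun alone held TGACATCA, a variant AP-1 site, at 45 to 38 bases, against 2.93% of all promoters. The full CRE, TGACGTCA, was in no member (1.55% of all promoters), and neither was the AP-1 site TGANTCA (6.75%) or the ETS site CCGGAA (12.0%). An EGR site, spelled GCGGGGGCG or GCGTGGGCG, lay before Fosb and Fosl2 (3.06% of all promoters). The HIF core ACGTG lay before Jund (16.6%) and the core GCGTG before Fos, Junb and Atf3 (28.2%). TATAAA was before Fos only (12.4%). The members' promoters had a median GC content of 63% against 52.4% over all promoters. A match is a description of letters and does not show that a factor binds there.

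Fos, the founding member of the family, had the lowest log2 fold change of the 10 genes. It maps to chromosome 12 (85473901 to 85477270, GRCm38) and was at 3.70 FPKM in controls against 1.49 FPKM with HIF-PPN. Its level was thus 2.48-fold lower, a log2 fold change of −1.31. Among the 11849 compared genes it ranked 45th from the lowest, and 0.793% of these genes were at least 2-fold lower. Of 3189 genes with a mean level within 2-fold of its own, 23 were as low or lower, and the central 90% of these genes ran from −0.65 to 0.80. The compared genes nearest to Fos in log2 fold change, among 3841 whose control level was within 2-fold of its own, were the Nogo receptor gene Rtn4r (2.76 and 1.11 FPKM), the Wnt inhibitor gene Wif1 (7.13 and 2.89 FPKM) and the pacemaker channel gene Hcn4 (6.49 and 2.59 FPKM). Of these 3841 genes, 50 were at least 2-fold lower.

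Fosl2 and Fosb, the other Fos members, were also lower in HIF-PPN hearts, at very different levels. Fosl2 (Fra-2), which lacks the strong activation domain of Fos, maps to chromosome 5 (32136472 to 32157839). It was the most abundant Fos member, at 9.91 FPKM in controls against 6.95 FPKM with HIF-PPN (1.43-fold lower, log2 fold change −0.51), and 4.73% of compared genes were as low or lower. Fosb, on chromosome 7 (19302696 to 19310045), encodes the full protein and the stable splice form ΔFosB, which the gene value does not separate. Fosb was at 0.160 and 0.0862 FPKM (1.86-fold lower, log2 fold change −0.89), below the level at which genes were compared. At this level 258 of 1307 genes with a mean within 2-fold of its own were as low or lower. The fold of Fosb therefore sits well inside the range that genes of its level cover, whereas those of Fos and Fosl2 lie below the 5% mark of genes of their levels (−0.65 and −0.44).

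Jund and Jun were the most abundant members, and of the 3 families the Jun family had the log2 fold changes nearest to 0. Jund, which encodes the Jun protein with the steadiest expression in resting cells, maps to chromosome 8 (70697739 to 70700616) and was at 21.9 FPKM in controls against 18.7 FPKM with HIF-PPN (1.18-fold lower, log2 fold change −0.23). Jun (c-Jun), the target of the JNK kinases, maps to chromosome 4 (95049036 to 95052222) and was at 20.6 and 16.9 FPKM (1.22-fold lower, log2 fold change −0.28). Junb, on chromosome 8 (84976909 to 84978748), encodes a weaker activator that can restrain c-Jun, and was at 8.35 and 8.20 FPKM (1.02-fold lower, log2 fold change −0.03). Its value was the closest to 0 of all 10 members. For all 3 Jun members the log2 fold change lay within the central 90% of genes of like level, which for Jun ran from −0.39 to 0.44.

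Atf3, a repressor induced by cell stress, maps to chromosome 1 (191170297 to 191183333). It was at 2.14 FPKM in controls against 1.96 FPKM with HIF-PPN (1.09-fold lower, log2 fold change −0.13). Of the compared genes 29.0% were as low or lower. The log2 fold change of Fos minus that of Atf3 was −1.18.

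The Egr members lay on both sides of 0. Egr1, which encodes the EGR factor best known in injury and growth signalling and lies on chromosome 18, was at 12.7 FPKM in controls against 10.3 FPKM with HIF-PPN (1.24-fold lower, log2 fold change −0.31). Of 4878 genes of like level, 438 were as low or lower. Egr2 (Krox20), known from myelinating Schwann cells and the hindbrain, maps to chromosome 10 (67537869 to 67542188) and was at 0.346 and 0.178 FPKM (1.95-fold lower, log2 fold change −0.96). Egr3, known from muscle spindles and lymphocytes, maps to chromosome 14 (70077445 to 70082613). It was the only member with a higher value in HIF-PPN hearts, at 0.626 and 0.791 FPKM (1.26-fold higher, log2 fold change 0.34). Egr2 and Egr3 were both below 1 FPKM in each group, and 204 of 1568 genes of the level of Egr2 were as low or lower than it. Of 1879 genes of the level of Egr3, 1306 were as low or lower.

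**Figure D1:**
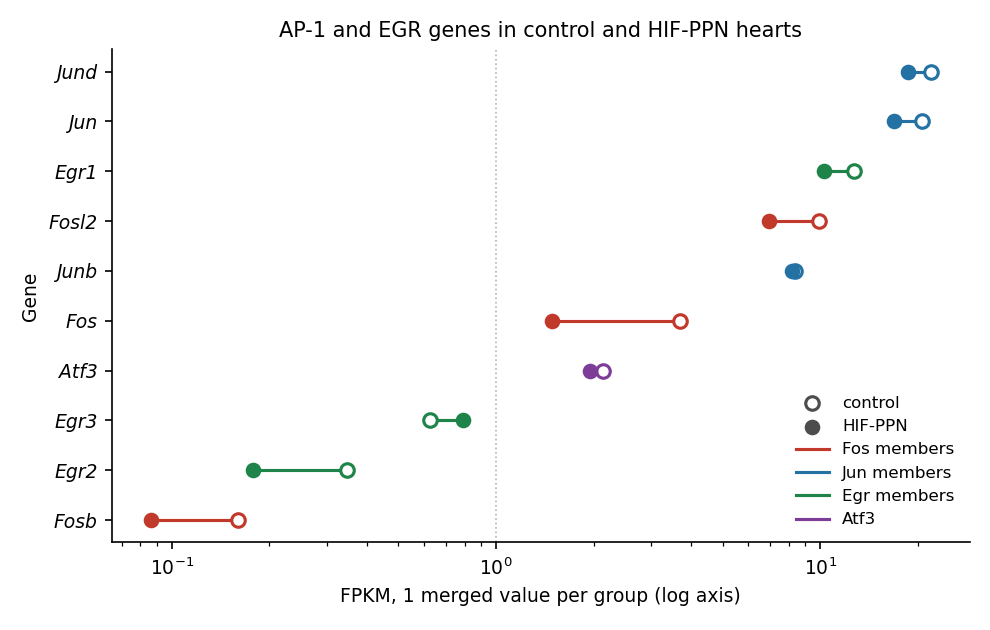
FPKM on a log axis for each of the 10 genes, ordered by control level, with open circles for control hearts and filled circles for HIF-PPN hearts (1 merged value of 3 mice each, so no error bars) and a dotted line at 1 FPKM. Fos has the longest shift, from 3.70 to 1.49 FPKM, the 2 circles of Junb nearly coincide, and Egr3 is the only gene with the filled circle on the right.

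Over all 10 members, 9 were lower and 1 was higher in HIF-PPN hearts, and their median log2 fold change was −0.30 (range −1.31 to 0.34). Of the compared genes, 48.0% were lower by any amount. The mean level reached 1 FPKM for 7 members, all of them lower, while Fosb, Egr2 and Egr3 did not reach it. Among the 7, Fos alone was at least 2-fold lower, beside 0.793% of compared genes, and none was at least 2-fold higher, beside 1.65%. Fos was still the only one of the 7 at 1.5-fold or more, beside 3.53% of compared genes, and Fosb and Egr2 among the members below 1 FPKM were past 1.5-fold as well. With 1 FPKM added to both values the log2 fold change of Fos was −0.92 and no member was past 2-fold.

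**Figure D2:**
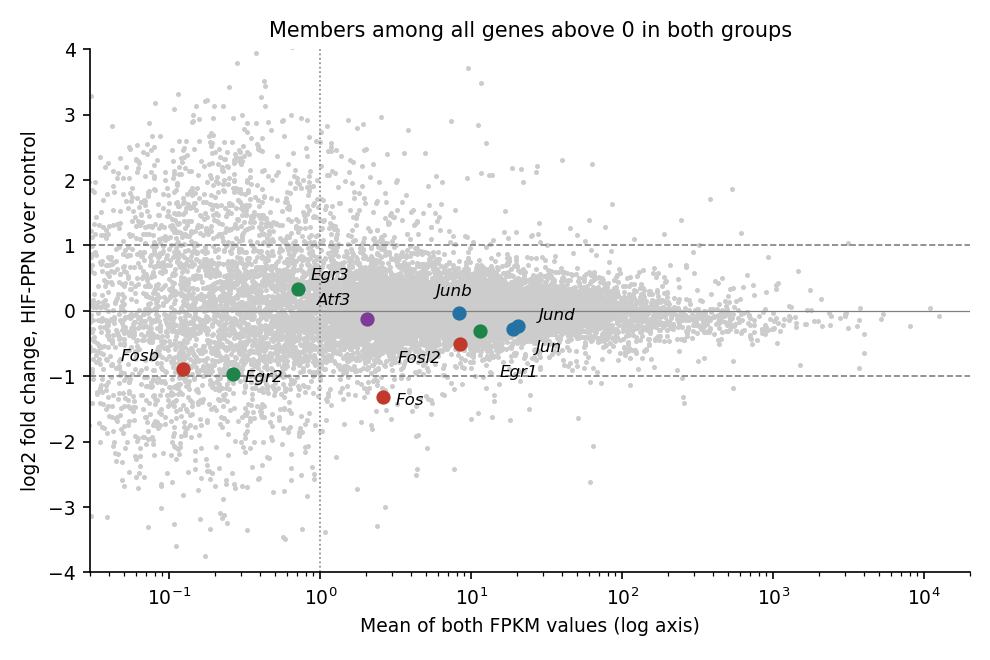
The log2 fold change of HIF-PPN over control against the mean of both FPKM values (log axis) for all genes above 0 in both groups (gray; 203.0 lie outside the axes), with the members in the color of their family (red, Fos; blue, Jun; green, Egr; purple, Atf3). Dashed lines mark 2-fold and the dotted line 1 FPKM. Fos lies at the lower edge of the cloud of genes of its level, at −1.31, while Fosb and Egr2 lie among many genes of low level with folds as large.

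The families were then set beside each other. Log2 fold changes ran from −1.31 to −0.51 for the Fos members, from −0.28 to −0.03 for the Jun members and from −0.96 to 0.34 for the Egr members. The ranges of the Fos and Jun members did not overlap. That of the Egr members covered the whole Jun range and part of the Fos range, but both its ends (Egr2 and Egr3) lie below 1 FPKM. Egr1, the only compared Egr member, was at −0.31, beside −0.28 for Jun. Since FPKM is per length, levels can be added within a family. The Fos members summed to 13.8 FPKM in controls against 8.53 FPKM with HIF-PPN (log2 ratio −0.69). The Jun members summed to 50.9 and 43.8 FPKM (log2 ratio −0.22) and the Egr members to 13.7 and 11.2 FPKM (log2 ratio −0.28). Jun family transcripts were 3.70 times as abundant as Fos family transcripts in control hearts and 5.13 times in HIF-PPN hearts.

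Within the Fos family, Fos made up 26.9% of the summed level in control hearts and 17.5% in HIF-PPN hearts, while Fosl2 made up 72.0% and 81.5%. The Jun family kept nearly the same make-up, with Jund at 43.1% and 42.6%, Jun at 40.5% and 38.6% and Junb at 16.4% and 18.7%. Egr1 accounted for 92.9% and 91.4% of the Egr family, so the summed Egr level follows Egr1, and Egr3 for 4.59% and 7.05%. Junb was 2.26 times as abundant as Fos in control hearts and 5.49 times in HIF-PPN hearts, and Egr1 was 3.43 and 6.87 times as abundant. None of these ratios has a replicate check.

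**Figure D3:**
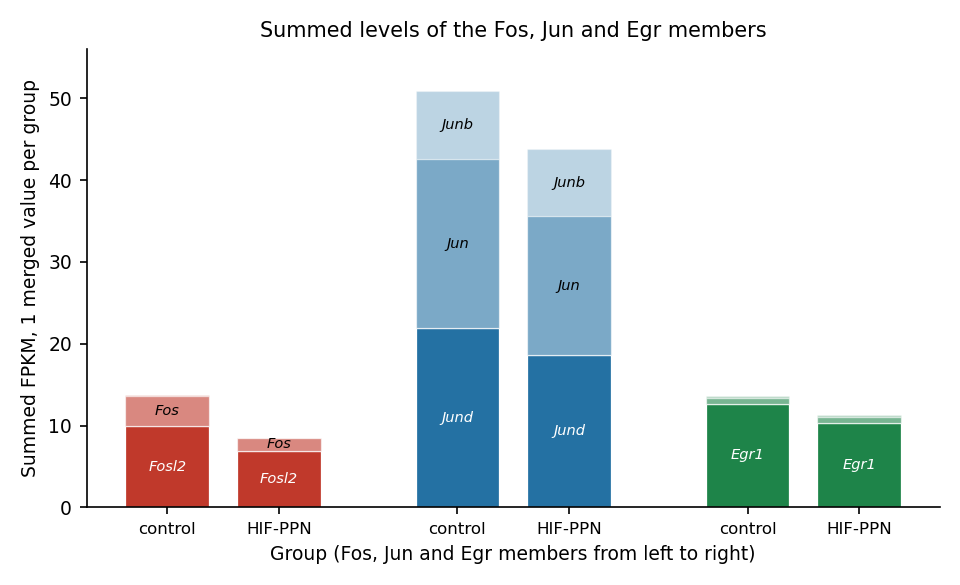
Stacked bars of FPKM for the Fos (red), Jun (blue) and Egr (green) members in control and HIF-PPN hearts, with 1 merged value per group and no error bars; segments too thin to label are Fosb, Egr3 and Egr2. The Jun bars are the tallest, at 50.9 and 43.8 FPKM, and the Fos bar is the one whose height differs most in proportion, from 13.8 to 8.53 FPKM.

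The members also shared features that did not enter their choice. They are short genes, with a median span of 4035 bases from 1840 (Junb) to 21368 (Fosl2), and 8 of 10 span under 8 kb against 18.3% of compared genes. Among the 2168 compared genes under 8 kb, 1.15% were at least 2-fold lower and the median log2 fold change was 0.04. No other gene of the RefSeq annotation overlaps the position of a member. Their neighbors within 100 kb were also compared. None of the 44 compared neighbors was past 2-fold, and they ran from −0.29 to 0.64 with a median of 0.10. The highest, 2010320M18Rik near Jund (9.17 and 14.3 FPKM), was past 1.5-fold. The only compared neighbor of Fos, Tmed10 of protein transport, was at 52.3 and 53.5 FPKM.

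Other genes of the AP-1 zipper class were set beside Fos. All 10 of the other AP-1 and zipper partners that were compared lay within 1.5-fold, beside 91.7% of compared genes. Of the 10, 4 were lower and 6 higher (median log2 fold change 0.05). The most abundant were the stress factor genes Nfe2l1 (176 and 216 FPKM, log2 fold change 0.29) and Nfe2l2 (35.9 and 37.9 FPKM) and the small Maf gene Mafk (18.1 and 19.2 FPKM). Fosl1 (Fra-1), the remaining Fos family gene, was listed at 0 in control hearts and at 0.0347 FPKM in HIF-PPN hearts. Egr4, the remaining EGR gene, was listed at 0 in both groups. Among relatives and co-repressors of EGR, all 5 compared genes were lower (48.0% of compared genes) and within 1.5-fold (91.7%), with a median of −0.11. They were the zinc finger genes Sp3 (25.6 and 24.9 FPKM), Sp1 (16.3 and 12.5 FPKM, log2 fold change −0.38) and Wt1 (2.26 and 2.18 FPKM) and the EGR co-repressor genes Nab1 (8.15 and 7.46 FPKM) and Nab2 (5.10 and 4.73 FPKM).

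Other immediate early genes went in both directions. Of 45 compared, 28 were lower and 17 higher, with a median log2 fold change of −0.08, and 9 were at least 1.5-fold lower and 1 at least 1.5-fold higher, beside 3.53% and 4.79% of compared genes. The most abundant were the survival gene Mcl1 (101 and 93.8 FPKM), the small GTPase gene Rhob (88.1 and 87.1 FPKM) and Dusp1 (56.9 and 32.7 FPKM, log2 fold change −0.80), whose phosphatase switches off p38 and JNK. Dusp5, a nuclear phosphatase of ERK, alone passed 2-fold, at 3.10 and 1.503 FPKM (−1.04 on the log2 scale), and with 0.1 or 1 FPKM added to both values it no longer did. Another 7 that were at least 1.5-fold lower, named because of their values, were Errfi1 (−0.87), which restrains the EGF receptor, the RNA decay factor gene Zfp36l1 (−0.83), the orphan receptor gene Nr4a1 (−0.75), Rgs2 (−0.74), which shortens G protein signals, Socs3 (−0.61), which restrains cytokine signals, the matrix protein gene Ctgf (−0.60) and the endothelial flow factor gene Klf2 (−0.59). Myc, the growth regulator, was the gene at least 1.5-fold higher, at 0.870 and 1.48 FPKM (log2 fold change 0.77).

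**Figure D4:**
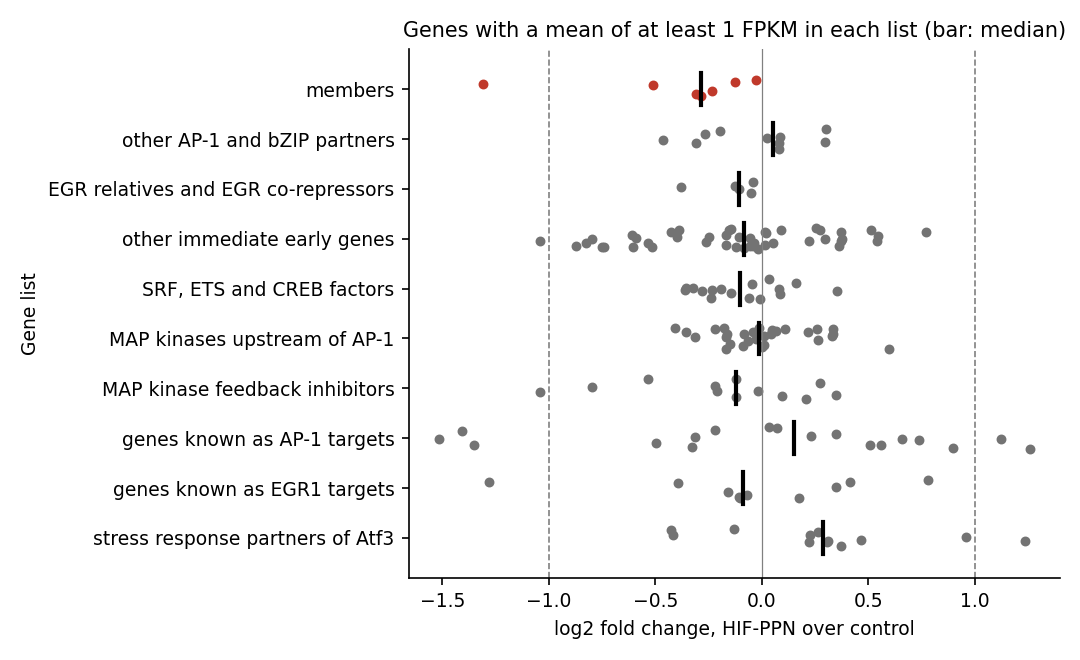
HIF-PPN against control, as log2 fold changes, for the members (red) and for the genes of each list (gray), each point a gene with a mean of at least 1 FPKM, spread vertically at random within its row, with a black bar at the median and dashed lines at 2-fold. The members' median is −0.28, Fos stands apart at −1.31, and the genes known as AP-1 targets reach past 2-fold on both sides.

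Most factors and kinases upstream of these genes lay within 1.5-fold, as did 91.7% of compared genes. All 16 compared factors that act at immediate early promoters lay within 1.5-fold, 11 lower and 5 higher (median −0.10). This list holds SRF, ETS and CREB factors, coactivators of SRF and CREB, MEF2 factors and Stat3. The most abundant were Mef2a (89.9 and 69.9 FPKM, log2 fold change −0.36), Stat3 (42.7 and 40.9 FPKM) and Mef2d (40.1 and 38.8 FPKM). Of 29 MAP kinases and their kinases, 15 were lower and 14 higher (median −0.01) and 28 lay within 1.5-fold. Araf, which encodes a kinase at the top of the cascade, was the most abundant (69.1 and 65.3 FPKM), and the exception, Mapk12 (p38γ), was at 16.8 and 25.4 FPKM (log2 fold change 0.60). Feedback inhibitors of MAP kinases were lower in 8 of 12 cases (median −0.12). Dusp1 and Dusp5 of this list are those described above, and the next most abundant were the ERK phosphatase gene Dusp7 (23.4 and 25.0 FPKM) and the receptor kinase inhibitor gene Spry1 (17.3 and 14.9 FPKM). RNA levels do not measure the activity of these kinases.

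Genes known as AP-1 targets were found on both sides. Of 18 compared, 7 were lower and 11 higher (median 0.15), with 3 at least 2-fold lower and 2 at least 2-fold higher, beside 0.793% and 1.65% of compared genes. These counts were 2 and 1 with 1 FPKM added to both values, and 1 and 1 where a mean of at least 5 FPKM was required. The lower ones were the vasoconstrictor gene Edn1 (4.05 and 1.41 FPKM, log2 fold change −1.52), the natriuretic peptide gene Nppb (372 and 140.4 FPKM, −1.41) and the collagenase gene Mmp13 (2.04 and 0.799 FPKM, −1.35). The higher ones were the cyclin gene Ccnd1 (26.4 and 63.3 FPKM, log2 fold change 1.26) and the urokinase receptor gene Plaur (1.58 and 3.45 FPKM, 1.12). Nppa, which encodes atrial natriuretic peptide and was the most abundant, was at 1235 and 875 FPKM (−0.50), and the intermediate filament gene Vim was at 125 and 197 FPKM (0.66). Of 10 genes known as EGR1 targets, 6 were lower and 4 higher (median −0.09). The growth factor gene Igf2 was lowest, at 34.9 and 14.4 FPKM (log2 fold change −1.28), and Fgf2 highest, at 1.72 and 2.95 FPKM (0.78). Pdgfb was at 17.3 and 23.1 FPKM (0.42) and the tissue factor gene F3 at 16.6 and 12.6 FPKM (−0.39).

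The stress response partners of Atf3 were mostly higher while Atf3 was not. Of 12 compared, 9 were higher and 3 lower (median 0.29). Atf4, the factor that induces Atf3 in the integrated stress response, measured 48.2 and 59.8 FPKM (log2 fold change 0.31) and Atf5 was at 29.4 and 34.5 FPKM (0.23). The asparagine synthetase gene Asns, a target of Atf4, was at 1.42 and 3.33 FPKM (1.23), and the lipoprotein receptor gene Vldlr at 97.9 and 73.4 FPKM (−0.42).

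Checks of the tissue stand beside these values. Hif1a was at 35.3 FPKM in controls against 25.9 FPKM with HIF-PPN, and the files do not show whether transgene reads count there. Of the 11 genes of the hypoxia and transgene list, 8 were higher (median 0.43). Car9 (1.89 and 21.2 FPKM), Bnip3 (115 and 259.9 FPKM) and Higd1a (31.1 and 69.3 FPKM) were at least 2-fold higher (1.65% of compared genes). The most abundant others were Vegfa (156 and 134 FPKM) and Egln3 (107 and 165 FPKM). The 8 higher genes include Arnt (19.1 and 19.7 FPKM) and Ehbp1l1 (52.1 and 71.2 FPKM, log2 fold change 0.45). The authors normalized PCR values to Ehbp1l1, as earlier work had found it unaltered by hypoxia. The 7 ventricular cardiomyocyte markers summed to 41158 and 36690 FPKM, and 7 of 7 were lower (median −0.09). Atrial markers, among them Sln and Myl7 at 434 and 623 FPKM in control hearts, were present in RNA labelled as ventricular and summed to 2608 and 1894 FPKM, with 4 of 5 lower. Macrophage markers were lower in 5 of 5 cases, summing to 106 and 81.1 FPKM, and both compared neutrophil markers were lower, S100a8 at 8.33 and 5.92 FPKM and S100a9 at 8.22 and 6.27 FPKM, while Mmp8 and Retnlg, below a mean of 1 FPKM, were at 0.0633 and 0.160 FPKM and at 0.674 and 1.199 FPKM. The 4 neutrophil markers found summed to 17.3 and 13.5 FPKM. Endothelial markers were lower in 5 of 6 cases (329 and 303 FPKM), those of smooth muscle and pericytes in 3 of 5 (431 and 325 FPKM) and those of fibroblasts in 2 of 6 (735 and 668 FPKM). All 5 compared adipocyte markers were at least 2-fold higher, beside 1.65% of compared genes. With Lep, which was below a mean of 1 FPKM, the 6 markers summed to 10.2 and 50.9 FPKM. Mybpc2, the only compared marker of skeletal muscle (5.29 and 22.3 FPKM), was also at least 2-fold higher. Below a mean of 1 FPKM, Mylpf (0.696 and 0.514 FPKM), Myh2 (0.0175 and 0.00682 FPKM) and Myh1 (0.00644 and 0 FPKM) were lower. Actn3 (0.116 and 0.197 FPKM) was higher, and Myh4, a defining gene of fast fibers, was listed at 0 in both groups. Alas2, the erythroid marker found, was at 26.4 and 23.3 FPKM. No lymphocyte marker reached a mean of 1 FPKM. Both compared markers of sympathetic neurons and chromaffin cells, Dbh (3.40 and 0.973 FPKM) and Ddc (3.76 and 1.62 FPKM), were at least 2-fold lower, beside 0.793% of compared genes. The others of that list, below a mean of 1 FPKM, went both ways. Th (0.0392 and 0.107 FPKM) and Chga (0 and 0.0251 FPKM) were higher and Slc6a2 (0.0400 and 0.0216 FPKM) was lower. The part of these cells in the values of the immediate early genes was not tested.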

How the data were processed

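Poly A RNA of 6 mice, 3 per group, was sequenced in paired ends. Per the labels and the methods, the authors aligned reads by TopHat with Bowtie, and estimated gene levels by Cufflinks and compared them by Cuffdiff, first on NCBI build 37.1 and later on mm10. The deposited FPKM values hold 1 merged value per group, and a further deposited column holds the authors' log2 fold changes, which were not used. Read counts were not used here, so depth is unknown. FPKM values depend on how Cufflinks scaled the libraries, which is not given in the sources used here.

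Of 21956 gene positions, 99.2% overlap the RefSeq gene of that name in GRCm38.p6, and positions are 1-based on that build. Of 23792 gene rows, 160 names are repeated, and the row with the highest mean was kept. Log2 fold changes use no pseudocount and a gene counts as past a threshold at 2-fold. A minimum mean of 1 FPKM was required. The calculation was tested on simulated data with known folds and no noise, which checks the arithmetic only. No test across genes was run, as there is no value per mouse.

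The members, the gene lists and the marker lists were chosen with earlier results of these data known. All members are named; of each other list, the 3 most abundant genes and those past 2-fold are named, and genes named outside this rule were chosen after their values were seen. Some values that this rule selects are not reported here. Promoters came from RefSeq (GRCm38.p6). Alternatives were pseudocounts, centring, other filters, a threshold of 1.5-fold and summed repeated symbols. Python 3.11.15, numpy 2.4.6, pandas 2.3.3 and matplotlib 3.10.9 were used.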

Additional observations from a re-analysis of the deposited data

How the results depend on the processing

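The members were recalculated in 40 combinations of a member and an alternative (2 pseudocounts, centring on the median of compared genes, and summed repeated symbols). All 40 kept their direction, but this is no check of direction. A value added to both groups cannot reverse it, summing left each member as it was, and centring moved each by 0.01. Of the 40, 38 stayed within 1.5-fold of the value given. The exceptions were Fosb and Egr2 with 1 FPKM added to both values, at −0.10 and −0.19 on the log2 scale. The number of members at least 2-fold lower was 1 (Fos) and became 0 with 1 FPKM added, and 0 where a mean of at least 5 FPKM was required, since Fos is then left out. Fos was at −1.25 with 0.1 FPKM added and at −0.92 with 1 FPKM added. The share of genes at least 2-fold lower was 0.416% with a mean of at least 5 FPKM, 3.75% with no filter and 3.53% at a threshold of 1.5-fold, and the share at least 2-fold higher was 0.737%, 5.30% and 4.79%. All 70 values of list medians kept their sign and moved by at most 0.08, but with an added value or a higher minimum the counts past 2-fold moved in 4 lists. The 1 lower gene among other immediate early genes and among feedback inhibitors (Dusp5 in both) became 0 with 0.1 or 1 FPKM added and with a mean of at least 5 FPKM. The 1 higher partner of Atf3 became 0 with 1 FPKM added and with a mean of at least 5 FPKM. Of the AP-1 targets, 3 lower and 2 higher became 2 and 1 with 1 FPKM added, and 1 and 1 with a mean of at least 5 FPKM. No paired analysis was possible because each group has 1 merged value, and for the same reason no mouse could be left out. Without values per mouse or read counts, precision is unknown, most of all for Fosb, Egr2 and Egr3 below 1 FPKM.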
